A study of Drosophila melanogaster with 24 samples.

Results

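The genes described here code for the protein subunits of the mitochondrial ribosome, and were taken as every gene of the count table whose symbol starts with *mRpL* or *mRpS* and a number. There were 73 of them among 16995 genes, 47 of the large (*mRpL*) and 26 of the small subunit (*mRpS*). They were followed in single brains of *tau*-KO *Drosophila melanogaster* of both sexes, as uninjured control and at 1, 2 and 4 h after a single strike traumatic brain injury (TBI), with 3 libraries in each of the 8 groups. Each library came from 1 brain of a mated fly of 10 to 14 days, controls included, and every group carried the *tau* deletion. The injury came from a modified high impact trauma (HIT) device, which is spring based and strikes the full body, so the trauma was not restricted to the head. Libraries were made from 15 ng of total RNA and hold reads from the 3′ end of polyadenylated RNA, so 1 transcript gives reads from 1 short region. The question behind the groups is how the brains of *tau*-deficient females and males respond to TBI.

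The mitochondrial ribosome makes the few proteins still coded by mitochondrial DNA, all of them core parts of the respiratory chain and of ATP synthase. Its RNAs come from mitochondrial DNA, while all of its proteins are nuclear coded, made in the cytosol and imported. Many of these proteins descend from bacterial ribosomal proteins and keep their numbers, and others are found in mitochondria alone. A few subunits carry other fly names, such as *tko* (S12) and *bonsai* (S15), and so fall outside the symbol rule. The complex is needed wherever oxidative phosphorylation is high, neurons included, and flies with a weak *tko* allele are known for seizures after mechanical shock.

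Gene counts per library ran from 117416 to 1880528 reads. The shallowest were male control 1 (117416), male 4 h 1 (158790) and male 1 h 3 (290304). A pair of libraries, male control 2 and male 1 h 2, differed from all others: over 3990 genes their profile correlated at 0.727 and 0.699 with the mean of the other libraries, against 0.874 to 0.974 for the other 22. Both were low in the 9 muscle markers, at 296 and 301 CPM (counts scaled to a common library size) against 2950 to 4208 CPM in the other 22, and in the 10 neuronal markers, at 1327 CPM each against 2227 to 3911 CPM. Glial markers were found in all libraries (1473 to 2721 CPM, highest in male control 2), as were photoreceptor (2483 to 16469 CPM, 7 of 8 genes counted), fat body (1356 to 22681 CPM), antennal (93.9 to 5122 CPM) and hemocyte markers (55.7 to 213 CPM). Reads of *tau* itself were counted at 53.2 to 190.7 CPM, and 3′ counts do not by themselves check the deletion. No replicates were copies of each other, since their chi-square per gene was 2.41 to 67.6 over 24 pairs. In RNA from whole brains, fewer cells of a type and less RNA per cell cannot be told apart.

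Levels are given as CPM scaled by TMM, a factor that evens out the makeup of libraries. They compare a gene between libraries; between genes they reflect reads per transcript end and not protein. The mitochondrial ribosomal protein genes were counted at low levels, and together they took 0.179 to 0.328% of the reads of a library. The mean CPM over the 24 libraries had a median of 21.5 (range 0 to 178) in the large subunit and of 25.7 (range 0.873 to 104) in the small subunit. A count was found in every library for 41 genes, 25 of the large and 16 of the small subunit. The 4 most counted genes held 31.3% of the reads of the large subunit and 38.7% of those of the small subunit.

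**Figure D1:**
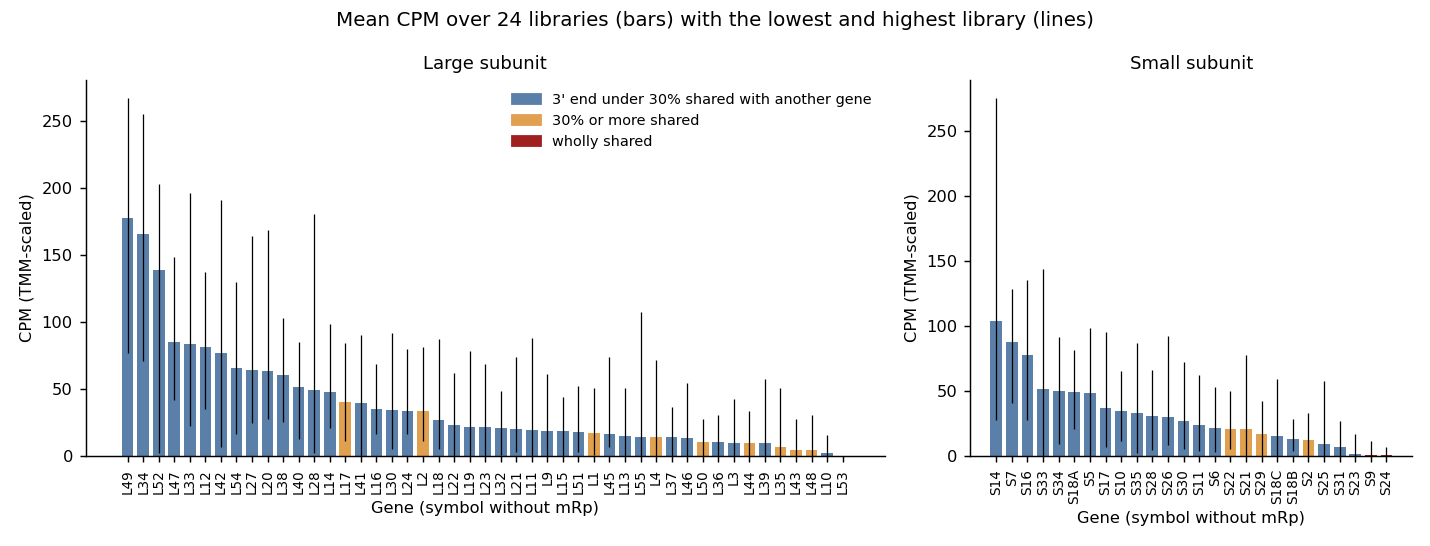
Mean CPM of the 73 genes over 24 libraries (bars), ordered within each subunit, with a line from the lowest to the highest library. Bar colour gives how much of the 3′ end is shared with another gene; *mRpL49* leads the large subunit at 178 CPM and *mRpS14* the small subunit at 104 CPM, and the 3 genes of wholly shared 3′ end have bars too short to see.

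In the large subunit *mRpL49*, a protein found in mitochondria and not in bacteria, was counted at 77.5 to 268 CPM (median 172) over the 24 libraries. *MRpL34*, the relative of a very small bacterial protein, followed at 70.9 to 255 CPM (median 172), and *mRpL52*, again particular to mitochondria, at 2.73 to 203 CPM (median 149). *MRpL47*, the relative of bacterial L29 near the exit of the peptide tunnel, was at 42.2 to 149 CPM (median 77.8). In the small subunit *mRpS14* and *mRpS7*, of the head of the subunit, were at 28.2 to 276 CPM (median 96.8) and 41.2 to 129 CPM (median 92.2). *MRpS16*, of the body, was at 28.2 to 136 CPM (median 74.9) and *mRpS33*, particular to mitochondria, at 0 to 144 CPM (median 36.3). None of these 8 genes was called in any injury comparison: their 48 log2 fold changes (log2 FC) against control of the same sex lay between −0.52 (*mRpS33*, females at 1 h) and 0.77 (*mRpL52*, females at 1 h), with SE of 0.40 to 0.87.

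Of the 41 genes counted in every library, 3 were lowest in male 1 h 2, which was seen only after the values were at hand. *MRpL52* had 5 counts there (2.73 CPM), against 54.9 CPM in male control 2 and 85.1 to 203 CPM in the other 22 libraries. *MRpS5*, the relative of bacterial S5, had 1 count there (0.546 CPM) and 8.88 CPM in male control 2, against 8.83 to 98.6 CPM in the others. *MRpS35* had 5 counts there (2.73 CPM), against 10.9 to 87.3 CPM in the other libraries. A count of 3 was not particular to male 1 h 2. Female 2 h 3, female 4 h 2, male control 2 and male 1 h 3 were also each the lowest for 3 of the 41. Male control 1 was the lowest for 8 and male 4 h 1 for 7.

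A gene was tested where 3 or more libraries held 5 or more counts, which left 70 of the 73, 46 of the large and 24 of the small subunit. *MRpL53* had no count in any library. *MRpS9*, the relative of bacterial S9, had 34 counts in all, of which 21 came from male 1 h 2, 7 from male control 2, 4 from female 4 h 2, and 1 each from female control 2 and male control 3. *MRpS24* had 24 counts, 8 each in female control 2 and male control 2 and 4 each in female control 3 and male 1 h 2. In a library at 0, up to 3 counts remain possible, which is 21.1 CPM in male control 1 and 1.64 CPM in male 1 h 2. This limit covers counting error only, since PCR copies are not independent molecules.

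The 3 untested genes had one annotated feature in common. In a later annotation (BDGP6.54) the last 200 bases of their transcripts lie wholly within another gene: *mRpL53* within *CG33155* on the same strand, *mRpS24* within *TBC1d7* and *mRpS9* within *ArgRS-m*, both on the opposite strand. No other member was overlapped in full. Of all 73 genes, 31 shared no base of their 3′ end with another gene and had a median mean CPM of 33.4. Another 26 shared under 30% (median 29.0), and the 16 that shared 30% or more, the 3 above included, had a median of 11.7. Those 3 genes, at 0 to 0.971 CPM, lower that median and were known before the groups were compared. Single genes went against this order: *mRpL17* was at 40.7 CPM with 44.5% shared and *mRpL2* at 33.5 CPM with 38% shared. *MRpS21* was at 20.9 CPM with 90.1% of its 3′ end under *CG8870*. Whether strand was used in counting is not given in the sources used here, and 6.06 to 8.71% of the reads of a library were set aside as ambiguous between genes. Whether they held reads of these genes was not tested. Levels of *mRpL48* (54.7% shared, with *frtz* among others) and *mRpL43* (33.0%, with *sigmar*) are uncertain for the same reason. So are those of *mRpS18C* (29%, with *CG15536*), *mRpS23* (28.5%, with *Polr2C*) and *mRpL11* (26.5%, with *CG8461*). *MRpL55*, *mRpL21*, *mRpL40*, *mRpL20*, *mRpS11* and *mRpS17* shared none.

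Summed over its genes, the large subunit was counted at 958 CPM (male control 1) to 2582 CPM (male control 2), with a median of 1854 CPM. The small subunit went from 521 to 1146 CPM in the same libraries, with a median of 825 CPM. The large subunit thus had 2.03 times the reads of the small subunit in the median library, between 1.79 times in female 2 h 3 and 3.03 times in male 4 h 3.

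By group, the summed large subunit was 1707 ± 315 CPM (SD, n = 3) in female controls and 1640 ± 227, 1820 ± 363 and 1767 ± 450 CPM in females at 1, 2 and 4 h. In males it was 1960 ± 876 CPM in controls and 2073 ± 697, 1760 ± 409 and 1820 ± 630 CPM at 1, 2 and 4 h. The summed small subunit was 849 ± 156 CPM in female controls, then 816 ± 128, 818 ± 23.0 and 910 ± 197 CPM. In males it was 825 ± 313 CPM in controls, then 885 ± 221, 793 ± 24.7 and 741 ± 117 CPM. In both subunits every injured mean lay within 1 SD of the controls of its sex, and every injured group overlapped its controls.

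**Figure D2:**
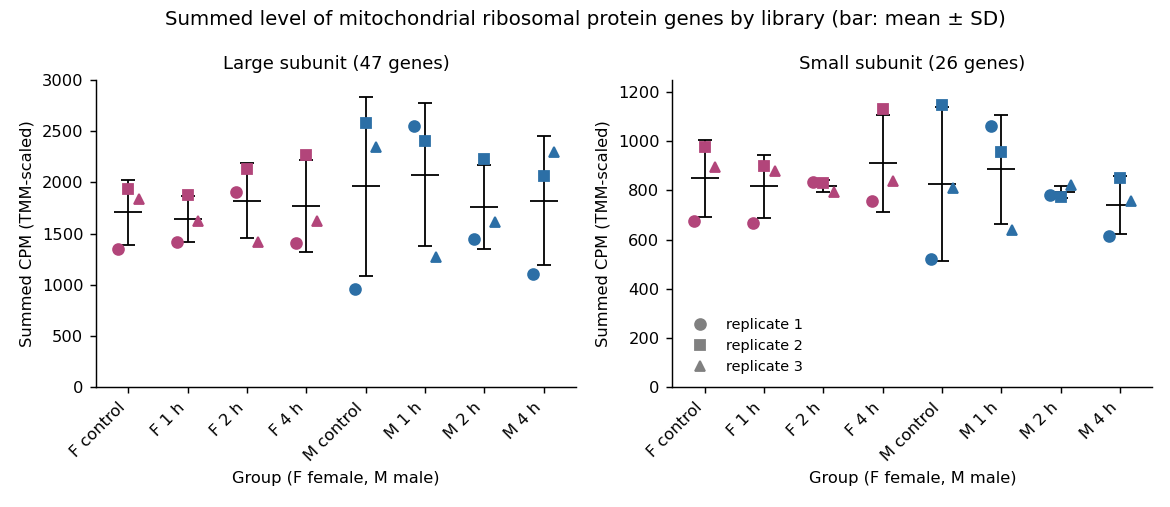
Summed TMM-scaled CPM of the large and small subunit genes in each library, by group, with replicates as different symbols and mean ± SD as bars. Male controls span 958 to 2582 CPM in the large subunit and cover the range of every injured male group.

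The sums were also set against depth. Over the 24 libraries the log2 of the summed large subunit correlated with log2 depth at r = 0.93 (Pearson) and 0.90 (Spearman). Without the 2 libraries farthest from the median depth, male control 1 and male 4 h 1, Pearson's r was 0.90. It was 0.91 within the 12 female and 0.97 within the 12 male libraries, and 0.88 with CPM that carry no TMM factor. For the small subunit r was 0.80 (Spearman 0.72), 0.67 without the same 2 libraries, 0.69 in females, 0.85 in males and 0.59 without TMM. These are descriptions of points that share the depth in their scaling, with no test.

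The relation was spread over many genes. Of the 70 tested genes, 59 had a positive rank correlation of CPM with depth (84.3%) with a median of 0.51, against 58.0% and a median of 0.12 over all 7865 tested genes. Among genes of 10 to 180 mean CPM, the same was seen in 50 of 61 members (82.0%, median 0.52) and in 52.1% of all 4519 genes (median 0.03). *MRpL33*, the relative of a small bacterial protein, had the highest value (0.91), and *mRpS5* the lowest (−0.71). Cytosolic ribosomal protein genes gave a median of 0.69 and nuclear genes of the respiratory chain 0.45, which fell to 0.44 and 0.16 without TMM factors, where the members stood at 0.41. Beyond a fit without the 3 shallowest libraries, the part of depth in the differences between groups was not tested.

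**Figure D3:**
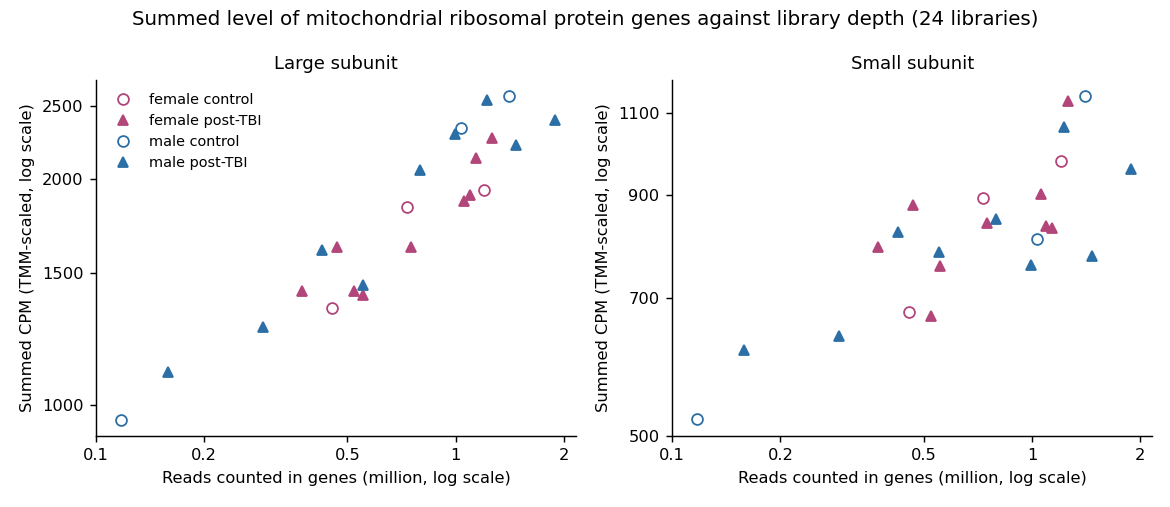
Summed CPM of each subunit against the depth (reads counted in genes) for the 24 libraries, both axes logarithmic. Deeper libraries lie higher in both sexes, with r = 0.93 in the large and 0.80 in the small subunit.

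Injured groups were compared with the uninjured flies of their sex, and a gene was called where the unadjusted p of edgeR's quasi-likelihood F-test was under 0.05 and the log2 FC was over 1 in size. The adjusted p of Benjamini and Hochberg over all 7865 tested genes was not under 0.05 for any member in any comparison, with edgeR, DESeq2 or limma voom, so each call stands on the unadjusted p. Every injured group of a sex is set against the same 3 controls, so a value of the controls enters all comparisons of that sex.

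In males at 2 h, 7 members were called, 6 lower and 1 higher. That is 10% of the 70 tested members, beside 5.42% of all tested genes called lower and 1.84% called higher in the same comparison. The lower genes were *mRpL43*, *mRpL55*, *mRpL11*, *mRpL21*, *mRpS18C* and *mRpS23*, and the higher one was *mRpL40*; the adjusted p was 0.64 for each (edgeR). With RLE size factors in place of TMM the calls were 8 lower and none higher, of which 6 were shared. Without male control 2 only *mRpL43* and *mRpS18C* remained. There were 11 calls without male control 1, 12 without the 3 shallowest libraries, and 3 and 4 without male 2 h 2 and male 2 h 3. The share of all tested genes called moved as well, to 8.25% with RLE size factors, 1.96% without male control 2 and 11.7% without male control 1. It was 14.3% without the 3 shallowest libraries, and 5.11% and 5.09% without male 2 h 2 and male 2 h 3.

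*MRpL55*, a protein of animal mitochondria, was at 21.1, 107 and 7.35 CPM in the 3 male controls and at 1.73, 5.29 and 4.49 CPM 2 h after TBI. All injured males were below all controls, and male control 2 was far above the other controls. The separation rests on few reads: male control 3 and male 2 h 2 had 7 counts each, and male control 1 had 3. Means of 45.3 ± 54.2 and 3.83 ± 1.87 CPM (SD, n = 3) gave a log2 FC of −3.52 ± 1.44 (SE). Without male control 2 or male 2 h 1 the gene was not called. At 1 and 4 h it was at 20.7 ± 27.4 and 6.63 ± 10.4 CPM, with log2 FC of −1.09 ± 1.25 and −2.55 ± 1.36, and was not called. At 4 h it was called lower with DESeq2, with no filter and on leaving out male 4 h 3 or male control 3.

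*MRpL43*, also particular to mitochondria, had 0, 34 and 16 counts in the 3 male controls and 0, 0 and 1 at 2 h. The groups overlap, since control 1 had no count. The ratio of 1 to 50 counts, scaled for depth, was 0.0199 (95% interval 0.000493 to 0.116, counting error only). The call was lost without male 2 h 2. At 1 h the gene was at 18.7, 6.55 and 0 CPM (log2 FC −0.84 ± 1.31) and at 4 h at 0, 1.24 and 2.94 CPM (log2 FC −3.09 ± 1.51), not called at either time. At 4 h it was called lower with DESeq2, RLE size factors, filterByExpr and limma voom and without male control 1.

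*MRpL11*, of the stalk base where elongation factors bind, was at 0, 88.0 and 18.9 CPM in controls and at 8.65, 10.6 and 2.24 CPM at 2 h. The groups overlap, and the mean of the controls rests on control 2. The log2 FC was −2.34 ± 0.97, and it was lost without male control 2 or male 2 h 3. *MRpL21*, the relative of bacterial L21, was at 14.1, 74.3 and 33.6 CPM in controls and at 13.8, 11.3 and 20.2 CPM at 2 h, again with overlap. Its log2 FC was −1.52 ± 0.70, lost without male control 2 or without 1 of male 2 h 1 and male 2 h 2.

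In the small subunit *mRpS18C*, a relative of bacterial S18, was at 7.04, 17.0 and 19.9 CPM in controls and at 3.46, 0 and 6.73 CPM at 2 h. The groups do not overlap, though control 1 had 1 count, and the call did not rest on control 2. The log2 FC was −2.42 ± 1.04, from 41 to 5 counts, and was lost on leaving out male control 3, male 2 h 1 or male 2 h 2. *MRpS23*, particular to mitochondria, had 16 counts in male control 2 and none in the other controls or in any male at 2 h. Its level was at least 5.37-fold lower at 2 h, measured against 3 counts over the group, and this rests on 1 library. DESeq2, limma voom and the fits that left out any male at 2 h did not call it.

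*MRpL40*, particular to mitochondria, was the only member called higher at this time. It was at 28.2, 12.9 and 44.1 CPM in male controls and 46.7, 47.6 and 85.2 CPM at 2 h, with no overlap. The means were 28.4 ± 15.6 and 59.8 ± 22.0 CPM, a log2 FC of 1.07 ± 0.50. The call was lost with RLE size factors, DESeq2 and limma voom, and on leaving out male 2 h 3, male control 1 or male control 2.

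**Figure D4:**
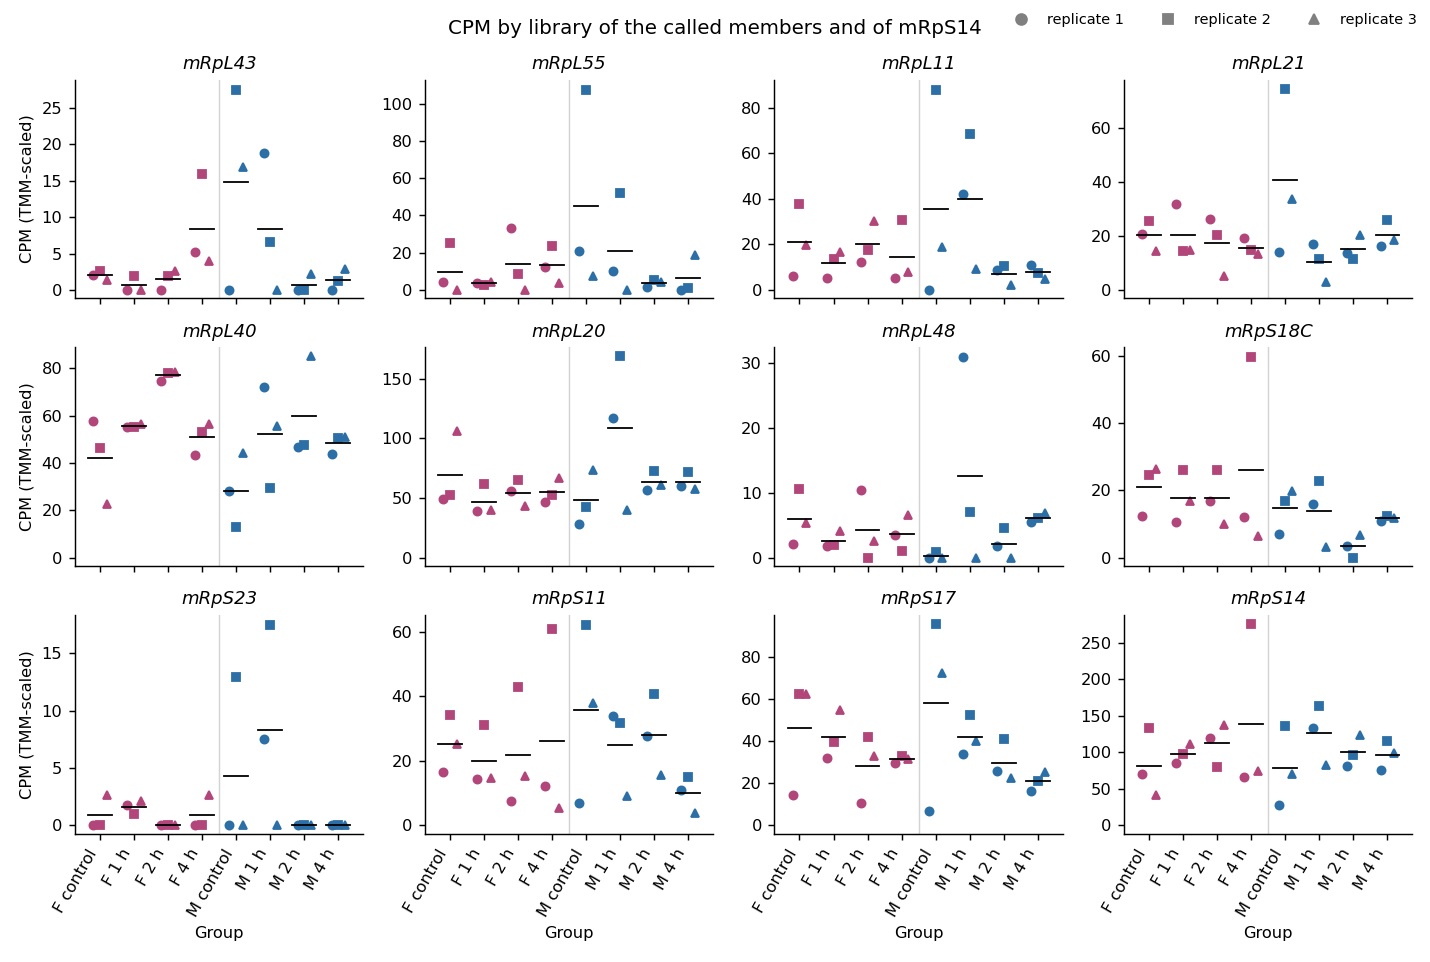
TMM-scaled CPM in each library for the 11 genes called in any comparison and for *mRpS14*, the most counted gene of the small subunit, by group, with the mean as a line. Squares of male control 2 and male 1 h 2 lie above all other points in *mRpL55*, *mRpL11* and *mRpS23*. That of the control alone is highest in *mRpL21*, *mRpL43*, *mRpS11* and *mRpS17*, and that of male 1 h 2 alone in *mRpL20*.

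Beside the calls, both subunits as a whole lay lower in males at 2 h. The median log2 FC was −0.49 over the 46 large subunit genes, 31 of them below 0, and −0.38 over the 24 small subunit genes, 15 of them below 0. The median of all tested genes was −0.02, with 3994 of 7865 below 0. With RLE size factors the median of all genes moved to −0.17 and those of the subunits to −0.63 and −0.55, which leaves both below all genes by 0.46 and 0.38. Without male control 2 the median was −0.19 in the large subunit and 0.16 in the small subunit, so the small subunit changed direction. The lower median came mainly from less counted genes: it was −1.07 over the 27 genes under 20 CPM and −0.23 over the 43 at or above. The SE of the log2 FC was 0.50 in the median gene of at least 50 CPM and 1.08 in the median gene under 20 CPM.

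Several values moved with this comparison. Male control 2 had the highest CPM of all 24 libraries for 18 of the 72 genes with a count (25.0%, against 15.0% of all tested genes), and male 1 h 2 for 15 (20.8%, against 13.8%). Male control 1, the shallowest library, had 22 members at 0. The summed muscle markers were 296 to 3711 CPM in male controls and 3634 to 3909 CPM at 2 h, all 9 counted, and the neuronal markers 1327 to 3528 and 2929 to 3726 CPM, all 10 counted. Their part in the result was not tested.

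In males at 4 h, 5 members were called, 4 lower and 1 higher, beside 2.56% of all tested genes lower and 1.36% higher. The adjusted p was 0.96 for each (edgeR). The calls were 5 lower and none higher with RLE size factors, of which 4 were shared, and 3, all shared, with the replicate number as a block. Without male control 2 there were 2, *mRpL48* and *mRpS30*, and without male 4 h 1 or male 4 h 2 only 1. Without male 4 h 3 there were 4, of which 1 was shared, and without the 3 shallowest libraries 5, of which 3 were shared. The share of all tested genes called moved as well, from 3.92% to 4.39% with RLE size factors and 3.89% with the block. It was 1.49% without male control 2 and 5.76% without the 3 shallowest libraries. Without male 4 h 1, male 4 h 2 and male 4 h 3 it was 3.55%, 1.88% and 4.24%.

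*MRpL11* was at 10.9, 7.42 and 4.91 CPM at 4 h, within a few CPM of its values at 2 h, with a log2 FC of −2.43 ± 1.02. It was lost on leaving out male 4 h 2, male 4 h 3 or male control 2. *MRpS17*, the relative of an RNA-binding protein of the bacterial subunit body, was at 7.04, 95.3 and 72.4 CPM in controls and at 16.4, 21 and 25.5 CPM at 4 h. Control 1 lay below all injured males and the other controls above them, and the log2 FC was −1.52 ± 0.65.

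*MRpS11*, of the platform of the small subunit, was at 7.04, 62.2 and 37.8 CPM in controls and at 10.9, 14.8 and 3.93 CPM at 4 h, with the same overlap through control 1. Its log2 FC was −1.99 ± 0.89. At 2 h it was at 27.7, 40.8 and 15.7 CPM and not called. *MRpS11* and *mRpS17* were each lost without male control 2 or male control 3 and without male 4 h 1, and in addition without male 4 h 3 or male 4 h 2 respectively.

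*MRpS23* had no count in any male at 4 h and 16 in controls, at least 4.6-fold lower, with all 16 in male control 2. The call was lost with DESeq2, limma voom, no filter, 1 sex only, the replicate block, without the 3 shallowest libraries and on leaving out any male at 4 h. *MRpL48*, particular to mitochondria, went the other way: it had 0, 1 and 0 counts in male controls and 1, 5 and 7 at 4 h (5.45, 6.19 and 6.87 CPM). The CPM of the groups do not overlap, but the 3 counts possible in control 1 (21.1 CPM) lie above every injured value, so a separation was not detectable at this depth. The ratio of 13 to 1 counts was 15.1 (95% interval 2.27 to 641), and the call was lost in 11 of the 14 alternatives that tested the gene, leaving out any male at 4 h or either of male controls 1 and 3 among them.

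In males at 1 h, 3 members were called, 2 higher and 1 lower, all of the large subunit, beside 2.00% of all tested genes higher and 2.64% lower. *MRpL20*, whose bacterial relative is needed early in assembly of the large subunit, was at 28.2, 42.8 and 73.5 CPM in controls and at 117, 169 and 40.1 CPM at 1 h. A pair of injured males lay above every control and male 1 h 3 within their range. The log2 FC was 1.13 ± 0.48 (adjusted p = 0.995, edgeR), lost without male 1 h 2, male control 1 or male control 2.

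*MRpL48* had 33, 13 and 0 counts at 1 h against 0, 1 and 0 in controls, so the third injured male was no higher than the controls. The ratio of 46 to 1 counts was 33.3 (95% interval 5.68 to 1343), and it was lost without male 1 h 1 or male control 3. *MRpL21* was at 16.9, 11.5 and 3.08 CPM at 1 h, with a log2 FC of −1.93 ± 0.71, lost without male control 2. It was thus called lower at both 1 and 2 h against the same controls, and at 4 h it was at 16.4, 26 and 18.7 CPM and not called. No small subunit gene was called at 1 h. The same 3 genes were called without the 3 shallowest libraries, beside 7.13% of all tested genes.

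In females, no member was called at 1, 2 or 4 h, and none had an unadjusted p under 0.05 in edgeR. Over all tested genes, the share called higher was 0.381% at 1 h, 0.559% at 2 h and 0.648% at 4 h, and the share called lower was 1.06%, 1.60% and 0.776%. Without single libraries there were 0 to 2 calls. The most were without female control 3 at 1 h (*mRpL39* and *mRpL46*), beside 1.55% of all tested genes. DESeq2 called none, as did the fit without the 3 shallowest libraries. Limma voom called 1, 0 and 3 members at the 3 times, beside 3.73%, 2.90% and 3.47% of all tested genes. *MRpL43* and *mRpL55*, called in males at 2 h, were at 2.07, 2.63 and 1.32 CPM and at 4.13, 25.4 and 0 CPM in female controls. At 2 h they were at 0, 1.86 and 2.54 CPM and at 33.0, 8.36 and 0 CPM.

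The genes farthest from 0 in females were chosen here for their size. *MRpL39*, particular to mitochondria, was at 15.8 ± 19.3 CPM in controls and 2.42 ± 2.70 CPM at 1 h (log2 FC −2.65 ± 1.5), and *mRpL32*, of bacterial kind, had the highest log2 FC at that time, 1.07 ± 0.89. At 2 h the highest was *mRpL10*, of the stalk, at 1.32 ± 1.32 CPM in controls and 5.35 ± 9.26 CPM after injury (log2 FC 1.84 ± 1.71), all of it from female 2 h 1, and the lowest was *mRpS23*, with 2 counts in controls and 0 at 2 h. *MRpL40*, next to the highest and called in males, was at 74.6, 78.0 and 78.7 CPM in females at 2 h, above each of the controls at 57.9, 46.5 and 22.5 CPM, with a log2 FC of 0.87 ± 0.48. It lay above its controls in both sexes at 2 h, and the interaction of sex and injury did not call it. At 4 h *mRpL43* had a log2 FC of 1.98 ± 1.43 and *mRpS26*, particular to mitochondria, of −1.41 ± 0.77.

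**Figure D5:**
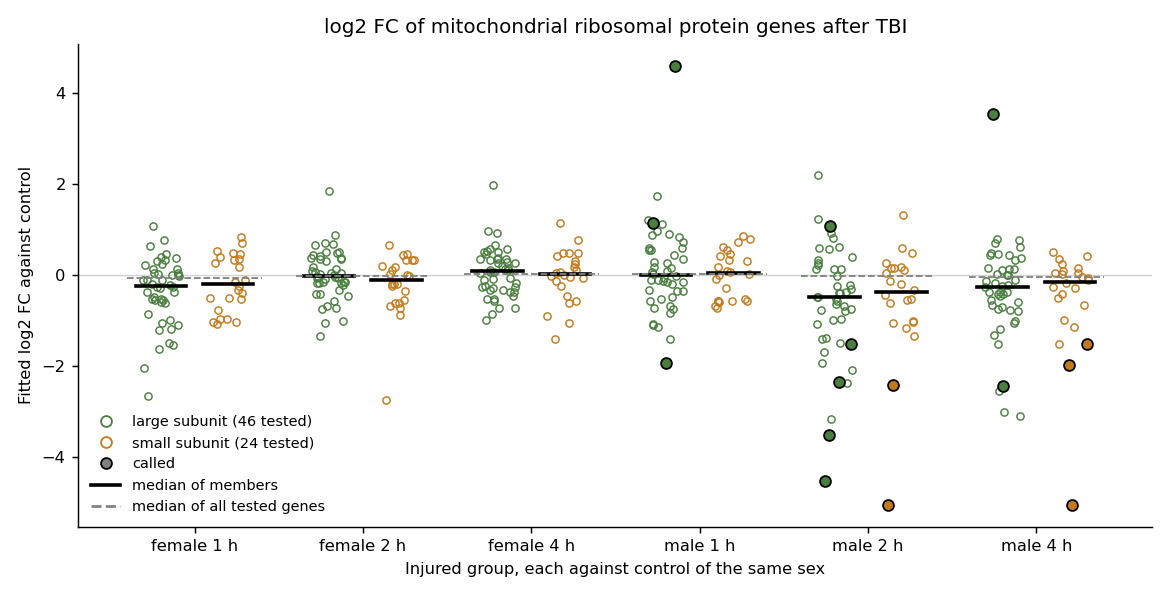
Fitted log2 FC of the 70 tested genes against uninjured flies for every injured group, large and small subunit apart, with called genes filled, medians of the members as black bars and the median of all tested genes as a dashed line. The most extreme values belong to genes with 0 or 1 count in a group (*mRpS23*, *mRpL43* and *mRpL48*) and depend on the prior count of the fit. The medians of the subunits lie farthest below the dashed line in males at 2 h.

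The medians of the large and small subunit were −0.25 and −0.20 in females at 1 h, beside −0.06 over all genes. At 2 h they were −0.03 and −0.11 beside −0.02, and at 4 h 0.09 and 0.02 beside 0.02. In males at 1 h they were −0.01 and 0.04 beside 0.02, and at 4 h −0.26 and −0.15 beside −0.05. Signs turned on leaving out single libraries: without male control 2 the medians in males at 4 h were both 0.09, and without female control 2 that of the small subunit in females at 1 h was 0.10.

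The difference between the sexes in their response was tested as an interaction. At 1 h, 2 members were called higher in males relative to females, *mRpL20* (log2 difference 1.69 ± 0.67) and *mRpL48* (5.80 ± 2.19, with 1 count in male controls), beside 1.64% of all tested genes higher and 1.40% lower. At 2 h *mRpL55* was called lower (−4.0 ± 1.92), beside 1.51% higher and 2.14% lower. At 4 h *mRpL43* was called lower (−5.07 ± 2.07, with 0 to 3 counts in each male at 4 h), beside 1.42% higher and 1.63% lower. The adjusted p was 1.00 for each (edgeR, rounded). The members called were 2.86% at 1 h and 1.43% at 2 and 4 h, against 3.04%, 3.65% and 3.05% of all tested genes in both directions. Without male control 2 neither of the last pair was called. *MRpL20* was lost without male 1 h 2 or female control 3, *mRpL48* without male 1 h 1 and *mRpL43* without female 4 h 2, while *mRpL55* was lost in 9 of 20 alternatives, leaving out any male at 2 h, female 2 h 1 or either of female controls 1 and 3 among them. *MRpL43*, *mRpL11*, *mRpL21*, *mRpL40*, *mRpS18C* and *mRpS23*, called in males at 2 h, were not called in the interaction at that time, so a difference between the sexes was not shown for them. The medians of the interaction at 2 h were −0.59 in the large and −0.27 in the small subunit, beside 0.04 over all genes. That of the small subunit turned to 0.21 without male control 2.

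Between uninjured males and females, *mRpL48* alone was called, lower in males, beside 1.55% of all tested genes lower and 1.47% higher. It had 1, 12 and 4 counts in female controls against 0, 1 and 0 in males, and the 3 counts possible in male control 1 again lie above every female value. The ratio was 0.0600 (95% interval 0.00144 to 0.383; adjusted p = 1, edgeR). The call was lost with the replicate number as a block, where no member was called, and with RLE size factors, where *mRpL43* was called higher in its place. Leaving out female control 2, female control 3, male control 1 or male control 3 ended it as well. The medians were 0.35 in the large and 0.12 in the small subunit beside −0.01 over all genes. Of the 70 members 48 (68.6%) lay higher in male controls, beside 49.4% of all tested genes. The median was 0.63 over the 27 genes under 20 CPM and 0.17 over the 43 at or above.

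Other nuclear genes of mitochondrial translation and transcription were taken as a list of 43, of which 32 were in the count table and 24 were tested. Their summed level was 514 to 1213 CPM. In females at 2 h 3 of the 24 were called lower and none higher, in males at 1 h 2 higher, at 2 h 1 higher and 1 lower, and at 4 h 2 higher and 1 lower. In the same order these were 12.5%, 8.33%, 8.33% and 12.5% of the tested list. Of all tested genes 2.16%, 4.64%, 7.26% and 3.92% were called in these comparisons. These calls rest on few reads. *Ico*, which codes for elongation factor G1, had 10 counts in female controls and 0 in females at 2 h (at least 3.54-fold lower), and in males 0 in controls and 27, 17 and 19 at 1, 2 and 4 h (at least 6.51-, 5.63- and 7.35-fold higher). *TyrRS-m*, the tyrosyl-tRNA synthetase of mitochondria, had 29 counts in female controls and 3 in females at 2 h (ratio 0.0973, 95% interval 0.0190 to 0.314), and 1 in male controls against 39 and 21 at 1 and 4 h (ratios 28.2, 4.77 to 1143, and 24.4, 3.92 to 1008).

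The interaction of sex and injury was called for *ico* and *TyrRS-m* at 1 and 2 h. Of the 24 tested genes of the list, 3, 2 and 1 were called in it at 1, 2 and 4 h, all higher. That is 12.5%, 8.33% and 4.17%, beside 3.04%, 3.65% and 3.05% of all tested genes. None had an adjusted p under 0.05 (edgeR), so a difference between the sexes was not shown. Between uninjured males and females 1 of the 24 was called, lower in males, beside 3.03% of all tested genes. In males every call of *ico* or *TyrRS-m* was lost without male control 2, and in females without female control 2. *MtRNApol*, the RNA polymerase that transcribes mitochondrial DNA, had 6 counts in female controls and 0 in females at 2 h (at least 2.13-fold lower), a call lost in 9 of the 12 alternatives that tested it, DESeq2, limma voom, the replicate block and leaving out any female at 2 h or either of female controls 1 and 2 among them. *CysRS-m* had 25 counts in male controls and 0 at 2 h (at least 8.39-fold lower), not called on leaving out male 2 h 2 or male control 2. *LeuRS-m*, the only one of the called genes with over 100 counts in a group, was at 38.9 ± 32.7 CPM in male controls and 13.5 ± 2.24 CPM at 4 h, a log2 FC of −1.54 ± 0.71 (adjusted p = 0.96, edgeR), lost without male control 2 or any male at 4 h.

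The cytosolic ribosomal proteins and the nuclear subunits of the respiratory chain, which the mitochondrial ribosome complements, were set beside the members. In males at 2 h 3 of 83 tested cytosolic genes and 2 of 64 respiratory chain genes were called lower and none higher. That is 3.6% and 3.1% of them, beside 5.42% of all tested genes called lower. The median log2 FC was −0.03 in the first and 0.10 in the second, against −0.49 and −0.38 in the 2 mitochondrial subunits. Their summed levels spanned a narrower range over the libraries: 1.57-fold in the cytosolic genes and 1.34-fold in the respiratory chain, against 2.70-fold in the large and 2.20-fold in the small mitochondrial subunit. Their median sums were far higher, at 182253 and 57714 CPM against 1854 and 825 CPM. Whether level or depth bears on the range was not tested. The other genes of mitochondrial translation and transcription, at a median of 876 CPM, spanned 2.36-fold. Their median log2 FC in males at 2 h was −0.17. A wide range was thus not particular to the members.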

How the data were processed

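The count table holds reads per gene for 24 libraries, which the authors deposited without normalization: per the submitters' notes and the paper's methods, reads of 50 bp were sorted with CASAVA 1.8.2, aligned to dm3 with STAR 2.4 and counted with HTSeq. Annotation version, strand setting and filters are not given in the sources used here. The deposited tables of comparisons, made by the authors with edgeR 3.22.3, were not used.

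All genes with at least 5 counts in at least 3 libraries (7865 of 16995) were fitted over 8 groups by the robust quasi-likelihood F-test of edgeR 4.0.16 (R 4.3.3) with TMM factors and library sizes over the tested genes. The SE is the absolute log2 FC divided by the square root of F. Adjusted p values are Benjamini and Hochberg's over the tested genes. The study's methods call genes at FDR under 0.05 and its legends at unadjusted p under 0.05, both with |log2 FC| over 1; the legends were followed. Folds against 0 counts are bounds at 3 counts over the group, and ratios to 1 to 3 counts have exact 95% intervals, for counting error only. The fit was tested on simulated data.

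Members, lists and tests were chosen with earlier results of these data known. Named genes were *mRpL43* and *mRpL55*, called and untested members, the 4 most counted of each subunit, and called genes of the second list. Alternatives were RLE size factors, DESeq2 1.42.0, limma voom (3.58.1) with quality weights, no filter, filterByExpr, a replicate block, 1 sex alone, |log2 FC| over 2, FDR, CPM without TMM, and libraries left out. Equal replicate numbers came from the titles. Deviations from group means of same-numbered libraries all correlated above 0.1 in females at 4 h, males at 4 h and between controls, so in 3 of 7 comparisons (range −0.43 to 0.64). A later annotation (BDGP6.54) served for overlaps only, and gene coordinates are not given. Figures used Python 3.11.15 with matplotlib 3.10.9.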

Additional observations from a re-analysis of the deposited data

Results flagged for a closer look

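The interaction of sex and injury was called for 4 members at an unadjusted p, with none under 0.05 after adjustment (edgeR). A difference between the sexes was thus not shown for them. The calls were 2.86% of the 70 tested members at 1 h and 1.43% at 2 and 4 h. These shares are below the 3.04%, 3.65% and 3.05% of all tested genes called in the same interactions. At 1 h *mRpL20* differed by 1.69 on the log2 scale, higher in males, and *mRpL48* by 5.80. At 2 h *mRpL55* differed by −4.0 and at 4 h *mRpL43* by −5.07, both lower in males. *MRpL20* was at 108.8 ± 64.9 CPM (SD, n = 3) in males at 1 h against 48.1 ± 23.1 CPM in controls, with 2 of 3 injured males above all controls. The value of *mRpL48* rests on 1 count in male controls and depends on the prior count of the fit. Those of *mRpL55* and *mRpL43* were not called without male control 2.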

How the results depend on the processing

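Counts of called members moved most in males at 2 h, from 7 to 0 at FDR under 0.05, 4 with limma voom, 3 in a fit of 1 sex only, 2 without both libraries that stand apart and 12 without the 3 shallowest libraries, a set chosen after the data were seen. The share of all tested genes called was 7.26% there, and 10.3%, 4.23%, 2.58% and 14.3% under the last 4 of these, so it moved as well. In males at 4 h, 5 became 3 at |log2 FC| over 2, 0 at FDR under 0.05, 2 with 1 sex only, 3 with the replicate block and 2 without both libraries that stand apart, where 3.92% of all tested genes became 1.99%, 3.89% and 2.00% in the last 3. In males at 1 h, 3 became 1 at |log2 FC| over 2 and 0 at FDR under 0.05. Females went from 0 to 1 at 1 h with limma voom and with no filter, beside 3.73% and 1.61% of all tested genes. At 4 h they went to 3 with limma voom, and to 1 with 1 sex only and without both libraries that stand apart. All tested genes were called at 3.47%, 1.75% and 1.97% there. The interaction at 1 h went from 2 to 1 at |log2 FC| over 2, with filterByExpr and without both libraries that stand apart. The last 2 of these called 1.92% and 2.53% of all tested genes. At FDR under 0.05 this interaction went to 0. At 2 h the interaction went from 1 to 0 at FDR under 0.05 and without both libraries, 3 with limma voom and 2 without the shallowest libraries. The share of all tested genes was 2.95%, 7.88% and 7.58% in the last 3 of these. At 4 h the interaction went from 1 to 0 at FDR under 0.05, 3 with limma voom and 2 with no filter and without the shallowest libraries. The share of all tested genes was 3.97%, 2.98% and 4.32% in the last 3 of these. Between controls 1 became 0 at FDR under 0.05, with limma voom and with the replicate block, and 2 without the shallowest libraries. The share of all tested genes was 3.47%, 3.24% and 6.98% in the last 3 of these. The median of the small subunit changed sign to 0.14 in females at 1 h with limma voom, and without both libraries that stand apart to 0.14 in males at 2 h, 0.17 in the interaction at 2 h and 0.048 at 4 h.

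Leaving out 1 library gave 0 to 2 calls in females at 1 h and 0 to 1 at 2 and 4 h. All tested genes were called at 0.531 to 3.01%, 1.63 to 3.32% and 0.968 to 2.39% there. Males had 2 to 11 calls at 2 h and 1 to 5 at 4 h, beside 1.96 to 11.7% and 1.49 to 7.12%. The interactions at 1, 2 and 4 h had 1 to 4, 0 to 2 and 0 to 3 calls. Beside them stood 2.25 to 7.34%, 2.41 to 6.09% and 1.77 to 4.65% of all tested genes. Between controls there were 0 to 3 calls, beside 1.47 to 5.99%. Over the same fits the small subunit median ranged from −0.42 to 0.10 in females at 1 h and −0.55 to 0.16 in males at 2 h. In the interactions at 2 and 4 h it ranged from −0.57 to 0.21 and from −0.81 to 0.092. Reversed values were *mRpL43* in males at 1 h without both libraries that stand apart (0.000589), *mRpL55* there (−2.90 to 0.80 on leaving out 1 library, above 0 without male control 2), and *ico* in males at 2 h with limma voom (−0.20). The cause was not tested. With the replicate block the counts were otherwise 3 and 6 in males at 1 and 2 h, beside 4.12% and 7.37% of all tested genes. They were 0 in females, and 2, 1 and 1 in the interactions beside 2.96%, 4.34% and 3.10%. Of 507 alternatives for single genes 325 kept the direction and the side of the threshold, and 170 lost the call. One count is worth 7.04 CPM in the shallowest library, which limits what can be seen of genes at 20 CPM or less.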

Other observations

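The most counted library of a member was male control 2 for 18 genes, male 1 h 2 for 15, female 4 h 2 for 8 and male 1 h 1 for 7, and 8 libraries were the highest for none. Of the 41 members counted in every library, male control 1 was the lowest for 8 and male 4 h 1 for 7.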
